A study of Homo sapiens with 6 samples.

Results

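The genes described here encode the machinery of autophagy and of the lysosome, and their mRNAs were measured in HEK293T cells with active and with inhibited mTOR. The members are 40 named genes, and every transcript of the mRNA-seq table that carries one of these names was taken, which gave 82 of its 38438 RefSeq transcripts. They comprise transcription factors of the TFE family, the ULK kinases and other initiation factors, the conjugation machinery, LC3 and GABARAP proteins, cargo receptors, lysosomal hydrolases and membrane proteins, and subunits of the vacuolar ATPase (V-ATPase). The test covered transcripts that averaged 1 RPKM or more over the 4 libraries, where RPKM are reads per kilobase of transcript scaled to the mapped reads of the library. This left 71 transcripts of 37 members, and MAP1LC3A, MITF and TFEB lay below the limit.

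HEK293T is a human embryonic kidney line that carries the SV40 large T antigen. mRNA-seq was performed on 2 libraries of growing cells and on 2 libraries of cells given the mTOR kinase inhibitor PP242 at 2.5 µM. LARP1 binding was measured by PAR-CLIP, a crosslinking and immunoprecipitation assay, in 1 library of growing and 1 library of PP242-treated cells. For it the cells took up 100 µM 4-thiouridine for 14 hr and were irradiated with 150 mJ/cm2 of ultraviolet light. The duration of the PP242 treatment is not given in the sources used here. The design describes the mRNA-seq libraries as duplicates, and p-values measure only the spread between these libraries. In bulk RNA, fewer cells that express a gene and less RNA per cell cannot be told apart.

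Autophagy encloses cytoplasm in a double membrane that fuses with the lysosome, where acid hydrolases break the cargo down. mTORC1 sits on the lysosomal surface when amino acids are plentiful. There it phosphorylates ULK1 and ATG13, which holds initiation back, and TFEB, TFE3 and MITF, which keeps these transcription factors out of the nucleus. In their dephosphorylated form the factors bind the CACGTG-containing CLEAR element in the promoters of lysosomal genes. LARP1 is an RNA-binding protein and mTORC1 substrate known for its binding to mRNAs of the translation machinery.

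The mRNA-seq libraries were of like depth. Relative depth, read from the steps between low RPKM values, was 1.04 to 1.06 times that of the first growing library in the other 3. Each library listed between 36046 and 36149 transcripts above 0. The replicates of a condition differed by a median of 3.24% (growing) and 2.68% (PP242) over the 37 members, each represented by its transcript with the highest mean RPKM. Markers of other cell types were low. PTPRC lay between 0 and 0.0259 RPKM in the 4 libraries, ALB and GFAP had means of 0.0356 and 0.0941 RPKM, and COL1A1 was the highest of the marker list with a mean of 1.80 RPKM.

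After PP242 the members stayed close to their levels in growing cells. GABARAPL1 and CTSD rose, by 1.12-fold and 1.08-fold, and no member transcript passed the test in the lower direction. These were 2 of 71 transcripts (2.82%), against 9.93% of all 21014 transcripts tested, of which 3.48% were higher and 6.45% lower (limma on log2(RPKM + 1), two-sided, Benjamini-Hochberg adjusted p under 0.05). Leaving out any 1 of the 4 libraries left 0 member transcripts past the threshold, while between 855 and 1094 transcripts of the whole table still passed. At an unadjusted p under 0.05, 10 member transcripts (14.1%) of 7 genes were higher and 5 (7.04%) were lower, all of ATG16L1, against 11.9% and 16.1% of all transcripts. With 1 transcript per gene these were 6 (16.2%) higher and 1 (2.70%) lower, against 13.2% and 18.3% of all genes. After adjustment 2 of the 37 members (5.41%) passed in this form, against 11.9% of 12606 genes (4.01% higher, 7.87% lower).

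The differences of the 37 members ranged from -0.14 to 0.17 on the log2(RPKM + 1) scale, which understates the change of low transcripts. Their median was 0.0070, beside -0.0041 for all genes. The PP242 libraries both lay above the growing libraries in 13 members (35.1%), against 27.9% of all genes. They both lay below in 4 members (10.8%), namely TFE3, ATG16L1, GABARAPL2 and GLA, against 31.1% of all genes. Differences were above 0 in 23 of 37 members (62.2%), against 48.3% of all genes. An exact permutation test of 2 against 2 libraries cannot go below p = 0.333, so single genes were read from the limma fit over the whole table. The 95% intervals of the 37 differences spanned -0.23 to 0.27, 33 of them lay within 0.2 of no change, and 30 held 0.

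**Figure D1:**
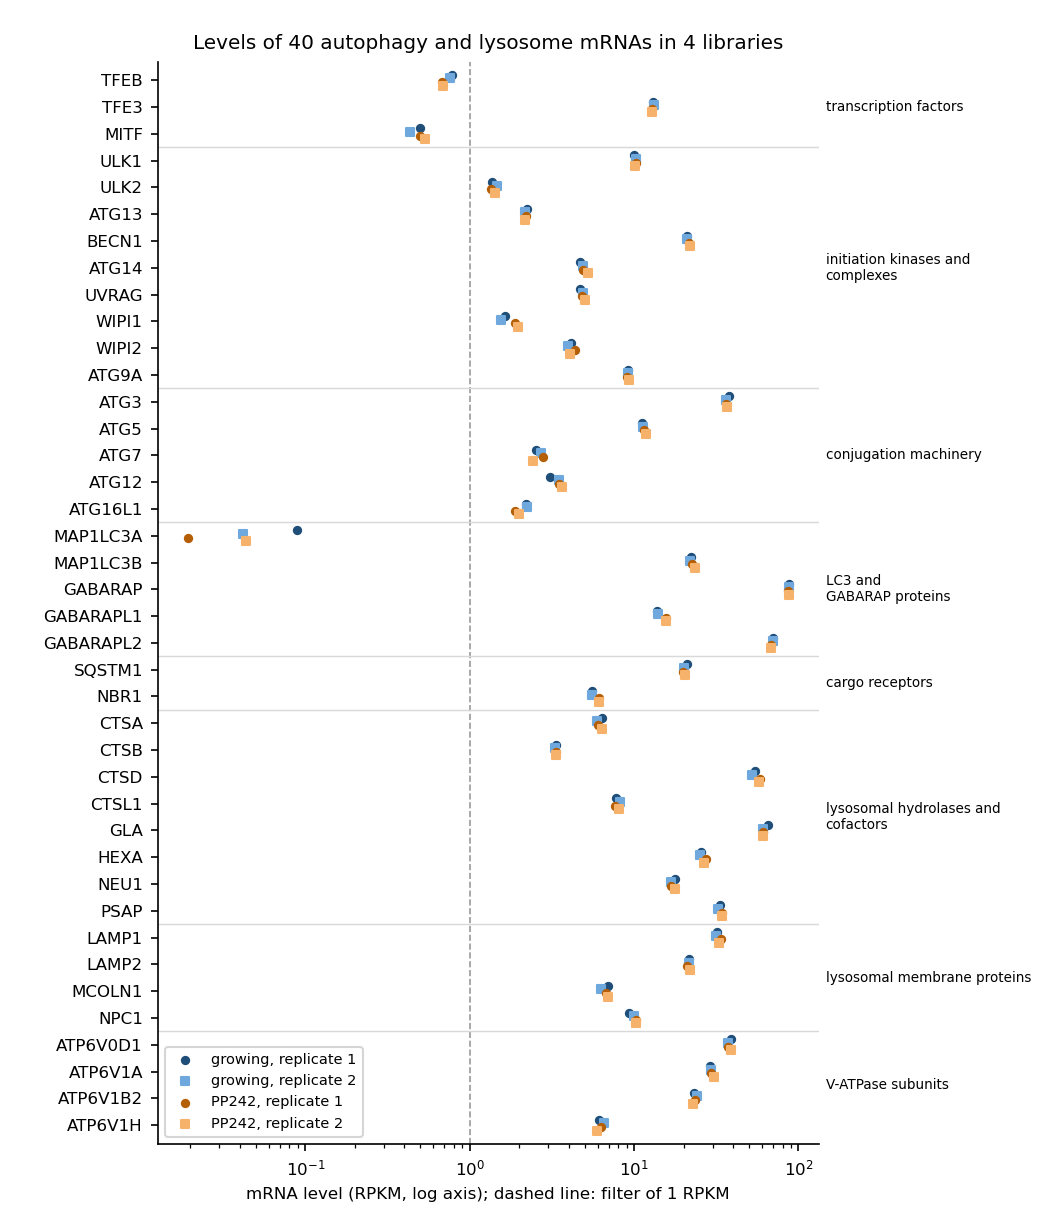
RPKM of each member in each library (horizontal log axis), with 1 transcript per gene, circles for replicate 1, squares for replicate 2, blue for growing and orange for PP242, grouped by role. The members spread from below 0.1 RPKM for MAP1LC3A to above 85 RPKM for GABARAP, and for the 37 members above the dashed line the 4 libraries lie close together.

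Several RefSeq transcripts of a gene carry nearly the same reads, so the test was repeated on RPKM summed over the transcripts of each gene. In this form 4 of 39 members passed, against 13.7% of 11952 genes (4.22% higher, 9.48% lower). GABARAPL1, CTSD and NBR1 were higher and ATG16L1 was lower. Leaving out 1 library left 0 or 1 of these calls. The remaining call was ATG16L1 without the second PP242 library, where its difference was -0.21 with a limma adjusted p of 0.0353.

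The transcription factors that mTORC1 keeps in the cytoplasm differed strongly in level. TFE3 (NM_006521.4) measured 13.0 and 13.2 RPKM in the growing libraries and 12.9 and 12.9 RPKM in the PP242 libraries. Its PP242 libraries lay just below the growing ones, with a difference of -0.02 and a limma adjusted p of 0.668. TFEB (NM_001167827.1) measured 0.781 and 0.762 RPKM under growing and 0.680 and 0.685 RPKM after PP242. Both PP242 libraries were below both growing libraries, at 0.885 times their mean. Without the filter on RPKM its limma adjusted p was 0.248, and with its transcripts summed the adjusted p was 0.317. MITF (NM_198159.2) measured 0.499 and 0.432 RPKM in growing cells and 0.499 and 0.536 RPKM after PP242, so its conditions overlapped. TFE3 was the only 1 of the 3 with a single transcript above 1 RPKM.

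Autophagy begins with the ULK kinase complex and the class III phosphatidylinositol 3-kinase complex. None of the 9 members of these steps passed the test, against 11.9% of all genes. At an unadjusted p under 0.05 (limma), 1 was higher and 0 lower, against 13.2% and 18.3% of all genes. Of the 9 differences 7 were above 0 (77.8%, against 48.3%). Levels ran from a mean of 1.40 RPKM for ULK2 to 21.4 RPKM for BECN1, the scaffold of the lipid kinase complex. ULK1, the kinase that mTORC1 inhibits, measured 9.97 and 10.3 RPKM in growing cells and 10.2 and 10.1 RPKM after PP242. Its values interleaved, with a difference of 0.01 and an interval from -0.07 to 0.08. The partner ATG13 and the membrane protein ATG9A had differences of -0.01 and 0.00, and BECN1 one of 0.05 (limma adjusted p = 0.288).

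WIPI1, a protein that reads phosphatidylinositol 3-phosphate on the forming membrane, had the largest difference of the 37 members. Its transcript NM_017983.5 measured 1.64 and 1.55 RPKM in growing cells and 1.89 and 1.97 RPKM after PP242. The PP242 libraries lay above both growing libraries by a mean of 1.21-fold. The difference of 0.17 (SE 0.041) had a limma adjusted p of 0.0520, which missed the threshold. The adjusted p was 0.0481 with rescaled libraries and 0.0427 without a trend, but 0.162 without a filter on RPKM, 0.108 in the fit of summed RPKM and 0.105 to 0.181 when 1 library was left out. Its relative WIPI2 measured 4.15 and 3.98 against 4.34 and 4.08 RPKM, and these values overlapped. ATG14 and UVRAG, alternative partners of BECN1, had differences of 0.07 and 0.04 with overlapping libraries. When 1 library was left out, these ranged from 0.022 to 0.114 for ATG14 and from 0.011 to 0.062 for UVRAG.

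The conjugation machinery attaches LC3 and GABARAP proteins to lipid. Of its 5 members none was called at the level of single transcripts, against 11.9% of all genes. At an unadjusted p under 0.05 (limma) 1 was lower, against 18.3% of all genes. This was ATG16L1, which places the ATG12-ATG5 conjugate on the membrane. It measured 2.20 and 2.25 RPKM under growing and 1.88 and 1.98 RPKM after PP242 (NM_017974.3). Both PP242 libraries were lower, at 0.869 times the growing mean, with a difference of -0.14 and a limma adjusted p of 0.0823. Its 5 transcripts had differences from -0.14 to -0.13 and their adjusted p ranged from 0.0782 to 0.0945. Summed, they gave 10.6 and 10.8 RPKM in growing cells against 9.09 and 9.57 RPKM after PP242. In the fit of summed RPKM ATG16L1 fell by 0.18 (SE 0.040, adjusted p = 0.0248).

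The other conjugation factors did not pass the test. ATG3, the E2-like enzyme of LC3, was the most abundant at a mean of 36.7 RPKM, and its difference was -0.03 (limma adjusted p = 0.575). ATG5 measured 11.2 and 11.4 against 11.5 and 11.7 RPKM, with no overlap but a difference of only 0.04. ATG12 measured 3.09 and 3.49 against 3.51 and 3.64 RPKM, with a wide interval from -0.04 to 0.22. The E1-like enzyme ATG7 showed the largest gap between replicates in percent (13.9%), with 2.80 and 2.43 RPKM after PP242 around growing values of 2.55 and 2.73 RPKM.

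The LC3 and GABARAP proteins coat the autophagosome and hold cargo receptors. GABARAPL1 was the one of the 4 tested members that passed (against 11.9% of all genes). It measured 13.8 and 14.0 RPKM in growing cells and 15.7 and 15.6 RPKM after PP242 (NM_031412.2). The libraries of the conditions were separated by more than the gap between replicates. GABARAPL1 rose by 0.15 on the log2 scale (SE 0.027, limma adjusted p = 0.0254). Leaving out 1 library kept the difference between 0.14 and 0.16, with adjusted p from 0.0682 to 0.0987.

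GABARAP and GABARAPL2 had the highest single-transcript levels, while PSAP was higher than either when its 3 transcripts were summed (94.3 RPKM in growing cells and 99.0 RPKM after PP242). GABARAP measured 87.2 and 87.3 RPKM in growing cells and 86.0 and 87.5 RPKM after PP242, and its conditions overlapped with an interval from -0.06 to 0.05. GABARAPL2 measured 69.8 and 69.9 against 68.5 and 68.3 RPKM. Its PP242 libraries were lower, but the difference of -0.03 did not pass (limma adjusted p = 0.405). MAP1LC3B, which encodes the LC3 form most used as an autophagosome marker, measured 22.0 and 21.9 against 22.5 and 23.5 RPKM, with an adjusted p of 0.240. MAP1LC3A was listed at 0.0885 and 0.0417 RPKM in growing cells and at 0.0192 and 0.0437 RPKM after PP242, low in every library.

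Cargo receptors link ubiquitinated material to these proteins, and 2 of them are among the members. SQSTM1 (p62) measured 21.1 and 20.0 RPKM in growing cells and 19.9 and 20.5 RPKM after PP242. The values interleaved, and the difference of -0.02 had an interval from -0.11 to 0.06 (limma adjusted p = 0.714). NBR1 measured 5.51 and 5.57 against 6.14 and 6.11 RPKM (NM_005899.3). Its PP242 libraries lay above the growing libraries by a mean of 1.10-fold, with a difference of 0.12 and an adjusted p of 0.0633. With its 3 transcripts summed, NBR1 measured 15.9 and 16.2 RPKM against 17.8 and 17.7 RPKM and rose by 0.14 (SE 0.032, adjusted p = 0.0297). Whether the receptors differed from each other in response was not tested.

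**Figure D2:**
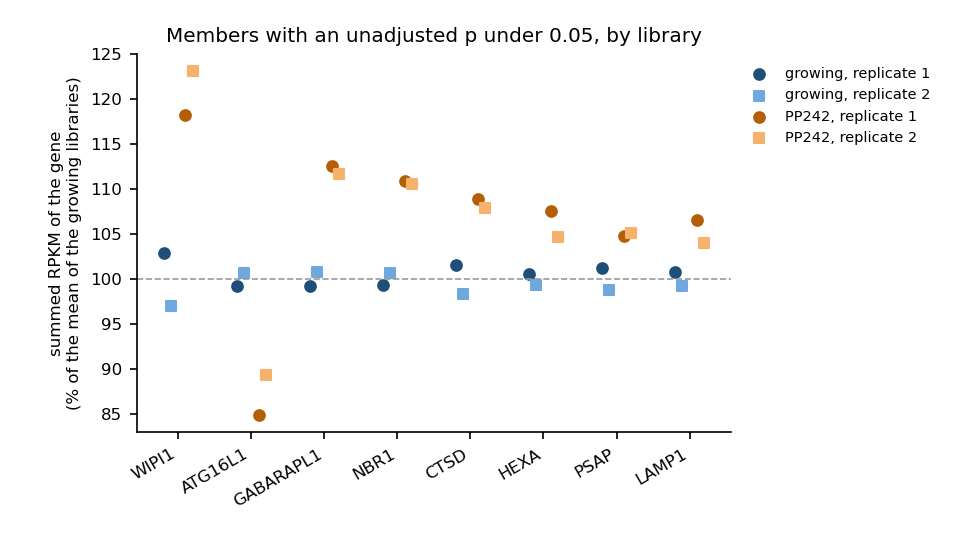
Summed RPKM of each gene as a percentage of its mean in growing cells (vertical axis), for the 8 members with a transcript at an unadjusted p under 0.05, by library. Both PP242 libraries lie above both growing libraries in 7 genes, up to 123% for WIPI1, and below them for ATG16L1, at 84.9% and 89.4%.

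Of the 8 lysosomal hydrolases and cofactors, CTSD passed the test, against 11.9% of all genes. Differences were above 0 in 6 of the 8, against 48.3% of all genes. CTSD encodes cathepsin D, an aspartic protease of the lysosome. It measured 54.0 and 52.3 RPKM in growing cells and 57.9 and 57.4 RPKM after PP242 (NM_001909.4), so the conditions did not overlap. CTSD rose by 0.11 (SE 0.026, limma adjusted p = 0.0491). The call lay at the threshold, with adjusted p of 0.0501 at a pseudocount of 5, 0.0920 without a trend and 0.0767 to 0.157 when 1 library was left out.

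Next to it, HEXA, a subunit of beta-hexosaminidase, measured 25.5 and 25.2 against 27.3 and 26.6 RPKM, without overlap (difference 0.08, limma adjusted p = 0.117). PSAP, the precursor of the saposins, measured 33.1 and 32.3 against 34.1 and 34.2 RPKM, also without overlap (difference 0.06, adjusted p = 0.188). GLA, which encodes alpha-galactosidase A, had the highest single-transcript level of the group and measured 64.9 and 61.1 against 61.0 and 61.0 RPKM. Its difference of -0.04 rested on the first growing library, since without that library it was -0.0019. The remaining hydrolase members CTSA, CTSB, CTSL1 and NEU1 had differences between -0.02 and 0.01, and all their conditions overlapped.

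Of the 4 lysosomal membrane proteins 0 were called by limma, against 11.9% of all genes. At an unadjusted p under 0.05, 1 was higher, against 13.2% of all genes. LAMP1, the major glycoprotein of the lysosomal membrane, measured 31.8 and 31.3 RPKM in growing cells and 33.7 and 32.9 RPKM after PP242. The PP242 libraries were both higher, with a difference of 0.07 and a limma adjusted p of 0.144. NPC1, the cholesterol exporter, measured 9.29 and 10.0 against 10.2 and 10.2 RPKM, and its higher PP242 values lay close to the second growing library. LAMP2 and the calcium channel MCOLN1 had overlapping conditions, with differences of -0.01 and 0.05.

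The V-ATPase pumps protons into the lysosome and takes part in amino acid sensing by mTORC1. Of its 4 member subunits none was called by limma, against 11.9% of all genes. None passed at an unadjusted p under 0.05 either, against 13.2% higher and 18.3% lower. The differences were 0.00 for ATP6V0D1, 0.04 for ATP6V1A, -0.03 for ATP6V1B2 and -0.04 for ATP6V1H. Their levels were between a mean of 6.23 RPKM (ATP6V1H) and 38.1 RPKM (ATP6V0D1). ATP6V1A alone had no overlap, at 29.07 and 29.53 against 29.54 and 30.78 RPKM. The gap between its conditions was smaller than the gaps between its replicates, and its limma adjusted p was 0.428.

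**Figure D3:**
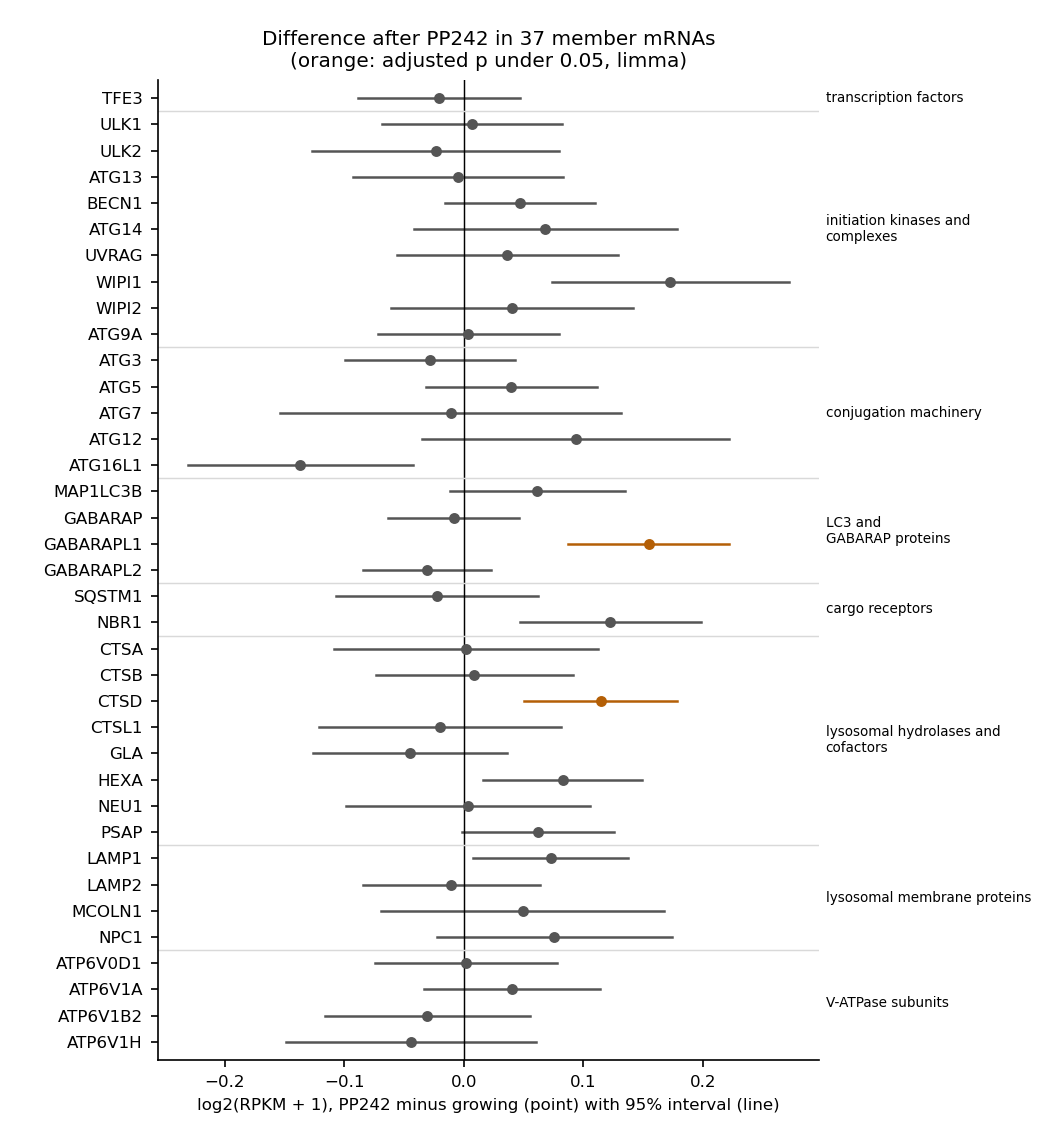
Difference in log2(RPKM + 1), PP242 minus growing (horizontal axis), for 37 members with 1 transcript each; points are limma estimates and lines are 95% intervals, orange where the adjusted p is under 0.05. GABARAPL1 and CTSD are the 2 orange points, and 30 of the 37 intervals cross 0.

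The promoters of the members were searched for the E-box CACGTG, because this is the core of the element bound by TFEB, TFE3 and MITF. RefSeq promoters on GRCh38.p14, from 250 bases before to 50 after the annotated start, were matched for 31 of the 40 members. CACGTG, which reads the same on both strands, was present in 8 of the 31 (25.8%), against 8.77% of 27305 genes and 7.26% of 35116 promoters. The longer GTCACGTG, on either strand, contains CACGTG and was present in 7 of the 31, against 2.93% of genes. One window is shown for each of the 8 genes, 5′ to 3′ on the strand of the gene, with CACGTG in capitals.
CTSD: ggccgcgccCACGTGaccggtccg
LAMP1: ccgcgggatCACGTGacgcccggg
MCOLN1: agaggcggtCACGTGaggggctct
CTSA: gccggagttCACGTGactcgtaca
NEU1: ctgcgtgatCACGTGggaggagat
ATP6V0D1: ccttatggtCACGTGaggcgcttg
ATG14: acaaaatccCACGTGactggctct
ATG3: ttctcacgtCACGTGccgggagag

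The window of CTSD is chr11:1763960-1763983 on the minus strand and its E-box begins 47 bases before the start. That of LAMP1 is chr13:113297202-113297225 on the plus strand, 28 bases before the start, and the LAMP1 promoter held 4 more E-boxes farther upstream. The MCOLN1 window is chr19:7522574-7522597 and the CTSA window chr20:45891301-45891324, both on the plus strand. The CTSA promoter held a further E-box, which begins 42 bases before the start. The remaining windows, all on the minus strand, are chr6:31862933-31862956 for NEU1, chr16:67481202-67481225 for ATP6V0D1, chr14:55411837-55411860 for ATG14 and chr3:112561966-112561989 for ATG3. Of the 8 genes CTSD was called (against 11.9% of all genes). CTSD and LAMP1 had PP242 libraries above both growing libraries (against 27.9%), none had them below (against 31.1%), and MCOLN1, CTSA, NEU1, ATP6V0D1, ATG14 and ATG3 had overlapping conditions. The matched promoters of GABARAPL1, WIPI1 and NBR1 held no CACGTG. A match describes these letters in this window and is not a measured site.

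LARP1 sites on the members were few. None of them lay in a 5’UTR, but the 5’UTR share of all sites was not worked out here. With so few sites this does not set the members apart from other mRNAs. The site lists give RPM, the reads of a site scaled to the mapped reads of its library. With 1 PAR-CLIP library per condition no difference between these lists has a replicate check. Under growing conditions 4 distinct sites lay on MITF, CTSB and ATG14, and under mTOR-inactive conditions 3 distinct sites lay on GABARAP, NBR1 and UVRAG. Among members of at least 1 RPKM, 2 of 37 had a site under growing conditions (5.41%, against 8.96% of 12606 genes) and 3 of 37 under mTOR-inactive conditions (8.11%, against 9.63%). With a minimum of 1 RPM these became 0 of 37 (against 1.52%) and 2 of 37 (against 3.29%). No member was listed in both conditions, but with only 2 and 3 expressed members listed this does not set them apart from all genes. Among all expressed genes 284 were listed in both, which is 25.1% of the growing list and 23.4% of the PP242 list.

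The site with the most reads was on GABARAP under mTOR-inactive conditions. It covered nt 642 to 675 of NM_007278.1, 34 nt in the 3’UTR, with 29.4 RPM. It ranked 429 of 2044 distinct sites on mRNAs in that library, and no other gene carried the same values. The lists also hold a T-to-C column, which in most sites is a fixed multiple of RPM (25.8 for the growing and 28.3 for the PP242 library). The GABARAP site was at 100% of this multiple. GABARAP was not listed in the growing library, and its mRNA level was 87.2 RPKM in growing cells and 86.7 RPKM after PP242 as means.

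NBR1 carried a 15-nt site in its 3’UTR under mTOR-inactive conditions, at nt 3166 to 3180 of NM_005899.3, with 2.93 RPM. The same values were listed for LYPLA1, so the reads cannot be assigned to NBR1 alone. The site was listed on the 3 NBR1 transcripts and ranked 521 of 2044. The UVRAG site had 0.0004 RPM, in its 3’UTR, and a site of the same length and values was listed on 20 genes, UVRAG included.

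Under growing conditions the only site of at least 1 RPM was a 13-nt stretch in the CDS of MITF, with 9.61 RPM (nt 775 to 787 of NM_000248.3). It was listed on 7 MITF transcripts, and DCDC2 and FNIP1 carried the same values. Its T-to-C value was 0.0081% of the usual multiple, while MITF mRNA was at 0.360 RPKM (NM_000248.3). ATG14 had 2 sites in its 3’UTR, with 0.0554 RPM at nt 2784 to 2804 and 0.0005 RPM at nt 3004 to 3017 of NM_014924.4. The first was at 100% of the multiple and not listed on another gene. For the second, the same length and values were listed on 3 genes in all. CTSB had a 3’UTR site of 0.0008 RPM on 5 transcripts, with the same values listed on 5 genes in all.

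**Figure D4:**
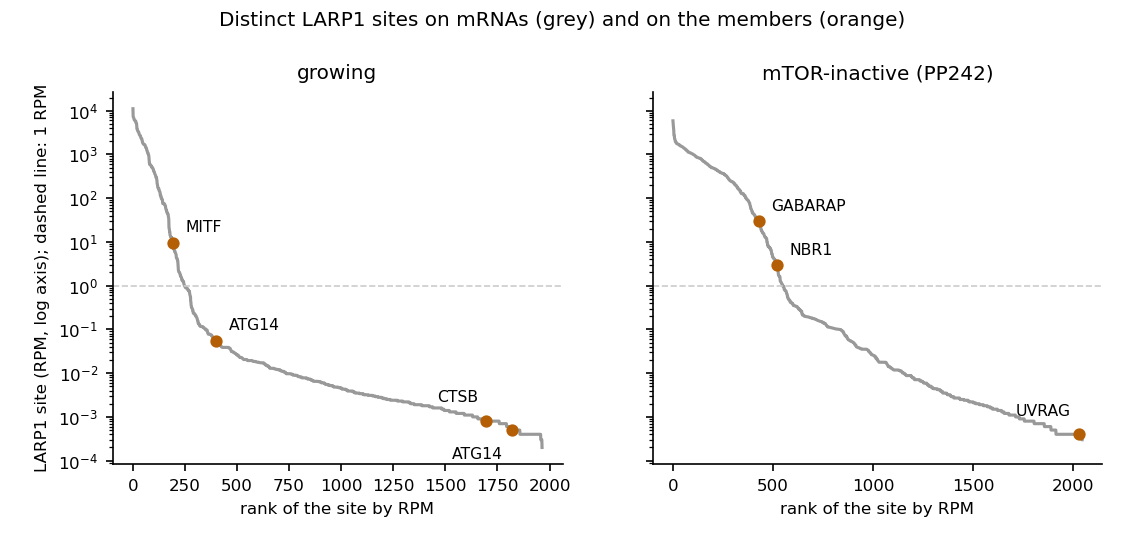
RPM of all distinct LARP1 sites on mRNAs (grey, vertical log axis) by rank in each library, with the sites on members in orange and a dashed line at 1 RPM. GABARAP at 29.4 RPM and NBR1 at 2.93 RPM lie above the line after PP242, and MITF at 9.61 RPM does so in growing cells, all far below the top sites.

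Summed over the members, counting for each gene the transcript with the largest sum, site reads came to 9.67 RPM in growing cells and to 32.3 RPM after PP242. Counted over every listed transcript, the order was the reverse, with 67.4 RPM in growing cells and 38.2 RPM after PP242, since the MITF site is listed on 7 transcripts. These latter sums were 0.0178% and 0.0101% of the RPM on all mRNA sites of the library, counted in the same way. With the largest transcript of each gene, 99.4% of the members' RPM under growing conditions lay in the CDS, all of it on MITF, and 0.586% in 3’UTRs. The values of this MITF site were also listed for DCDC2 and FNIP1. The other growing sites, on ATG14 and CTSB, had at most 0.0554 RPM each and all lay in 3’UTRs. Under mTOR-inactive conditions 100% lay in 3’UTRs, with 29.4 RPM from the GABARAP site. The CDS share and this 3’UTR share each rest mostly on a single site, and region shares over all mRNA sites were not worked out.

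Genes of the same pathways outside the members were examined in 6 lists, with 111 of 122 genes tested. The test called 1 higher and 5 lower (5.41%, beside the same 5.41% for members and 11.9% for all genes). IGF2R, the receptor that sorts hydrolases to the lysosome, rose 1.10-fold (adjusted p = 0.0330). OSTM1, the partner of a lysosomal chloride transporter, fell to 0.760 times its growing level (adjusted p = 0.0047), a lower ratio than in any of the 37 members tested. It measured 5.15 and 5.10 RPKM in growing cells and 3.92 and 3.87 RPKM after PP242. NRBF2, a factor of the lipid kinase complex, and C12orf44 (ATG101), of the ULK complex, were at 0.862 and 0.843 times (limma adjusted p of 0.0157 and 0.0436). ATP6V0B, a V-ATPase subunit, and RRAGA, a Rag GTPase that recruits mTORC1 to the lysosome, were at 0.902 and 0.894 times (adjusted p of 0.0229 and 0.0361). When 1 library was left out, 1 to 3 of these 6 calls remained, with OSTM1 among them each time, and without a filter on RPKM 0 did. Without a trend 3 of the 6 remained, and IGF2R, RRAGA and C12orf44 had adjusted p of 0.0551, 0.0594 and 0.0551.

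Among the lists, further hydrolases and cofactors had a median difference of 0.03, with 22 of 32 above 0 (68.8%, against 48.3% of all genes). None of them was called by limma, against 11.9% of all genes. At an unadjusted p under 0.05, 6 were higher (18.8%, against 13.2%) and 0 lower (against 18.3%). Further V-ATPase subunits had a median of -0.04, and in 8 of 12 both PP242 libraries lay below both growing libraries, against 31.1% of all genes. Genes of lysosomal nutrient sensing had a median of -0.06, and 7 of 12 lay below in this way. Among the 4 member V-ATPase subunits 0 did. These lists were not tested against each other.

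**Figure D5:**
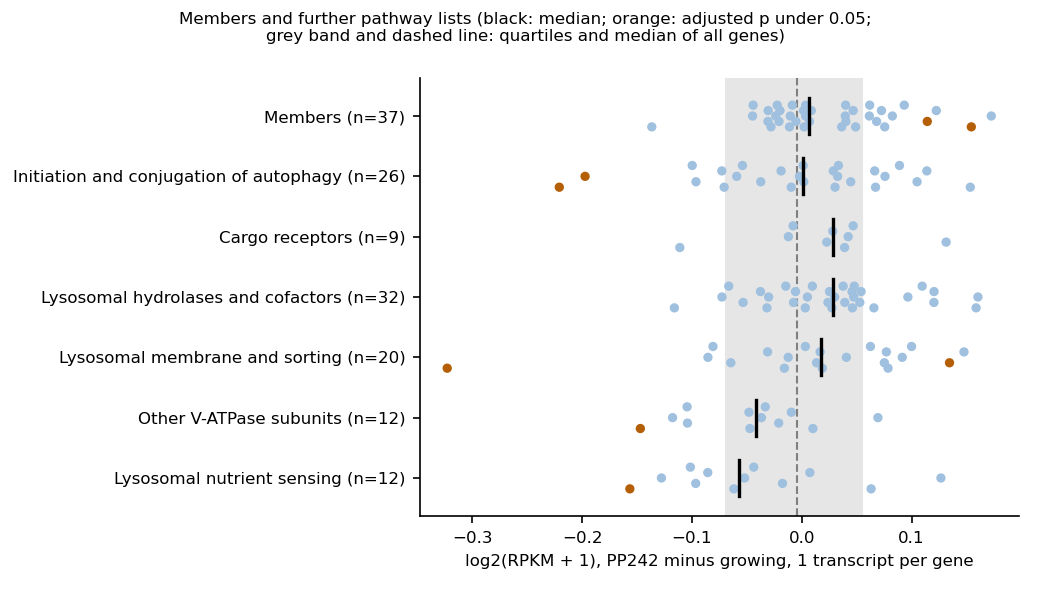
Difference in log2(RPKM + 1), PP242 minus growing (horizontal axis), for the members and 6 further pathway lists, 1 transcript per gene; black bars are medians, orange points have an adjusted p under 0.05, and the grey band and dashed line give the quartiles and the median of all genes. The members lie between -0.14 and 0.17 around a median of 0.0070, while OSTM1 is farthest to the left.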

How the data were processed

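LARP1 PAR-CLIP and mRNA-seq were performed in HEK293T cells under growing and mTOR-inactive conditions. The authors removed linkers and mapped reads to the GRCh37 transcriptome with Bowtie. From perfect matches of the mRNA-seq reads, with those of several matches split evenly, the authors made and deposited RPKM per RefSeq transcript. PAR-CLIP reads with few or no T-to-C mismatches were clustered by the authors. Clusters holding a converted read were deposited as sites, with all their reads summed as RPM, and with a ratio of RPM to transcript RPKM, multiplied by 1000. The deposited T-to-C column is handled as a score, since its meaning is not described. RPKM hold no read numbers, and library totals were not analysed here beyond the relative depth read from low RPKM values. Reads shared by isoforms or by near-identical genes are split or listed more than once.

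The table's 39711 lines held 1273 repeats, which were dropped. Differences came from limma 3.58.1 under R 4.3.3 (lmFit, eBayes with a trend, two-sided) on log2(RPKM + 1) for the 21014 transcripts averaging 1 RPKM or more, adjusted over all of them by the Benjamini-Hochberg method, at a threshold of 0.05. The step was tested on simulated data. Tables and plots were made with Python 3.11.15, pandas 2.3.3, numpy 2.4.6 and matplotlib 3.10.9. A further 6 transcripts without a gene name match a member by accession and were left out. Promoters came from RefSeq.

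The members, lists and tests were chosen with earlier results of these data known. Each member is named by its transcript with the highest mean RPKM. Transcripts past the threshold and sites of at least 1 RPM are given in full, and other pathway genes by name where they passed. ATG16L1, NBR1, WIPI1 and other members short of the threshold are described because each member is named. The alternatives were other pseudocounts, filters, scaling, no trend, a replicate block, leaving out each library, summed RPKM, and other limits and weights for sites. Leaving out a library in the summed form was added after seeing the data.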

Additional observations from a re-analysis of the deposited data

How the results depend on the processing

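The number of member transcripts past the threshold (2) was 1 with a pseudocount of 5, 0 without a filter on RPKM, 4 with a mean of at least 5 RPKM, and 0 when any 1 of the 4 libraries was left out. For all transcripts (2087) it was 120 without a filter, and 855 to 1094 without 1 library. Leaving the filter out adds low transcripts to the fit and to the adjustment, and which of these changed the calls was not tested. At 5 RPKM 2 NBR1 transcripts were the ones added. With rescaled libraries 3 member transcripts and 2080 transcripts of the whole table passed. Without a trend 2 member transcripts passed, with WIPI1 in place of CTSD (limma adjusted p of 0.0427 and 0.0920), and 1842 of the whole table. Member genes past the threshold numbered 4 with summed RPKM, and 0 to 1 of these without 1 library. With a replicate block 2 member transcripts and 2135 transcripts of the whole table passed. The sources used here do not say whether the replicate numbers pair the samples. Same-numbered deviations had a correlation of 0.040 across 21014 transcripts. This shows no shared replicate effect but cannot settle whether samples were paired, and the block is given here once. The median difference of member transcripts stayed between -0.0011 and 0.017 without 1 library, less than the SD of 0.019 between replicates from the main value. In the further pathway lists 6 genes passed, against 9 with rescaled libraries, 10 with a mean of at least 5 RPKM and 8 with a replicate block. At 5 RPKM 5 of the 6 were among them, since OSTM1 lies below that limit and was not tested. With the block 5 of the 6 were, without C12orf44 (adjusted p = 0.0554).

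Of 249 values of named transcripts under the other settings, 243 kept direction and side of the threshold and 0 reversed; the exceptions concern GABARAPL1, CTSD and WIPI1. When 1 library was left out, 22 of 37 transcripts kept their sign. The others ranged from -0.013 to 0.027 (ULK1), -0.051 to 0.0040 (ULK2), -0.018 to 0.0077 (ATG13), -0.016 to 0.023 (ATG9A), -0.056 to 5.89e-05 (ATG3), -0.084 to 0.062 (ATG7), -0.021 to 0.0035 (GABARAP), -0.058 to 0.014 (SQSTM1), -0.043 to 0.047 (CTSA), -0.055 to 0.016 (CTSL1), -0.038 to 0.045 (NEU1), -0.039 to 0.018 (LAMP2), -0.016 to 0.11 (MCOLN1), -0.025 to 0.028 (ATP6V0D1) and -0.064 to 0.0027 (ATP6V1B2). The cause was not tested.

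Genes with a LARP1 site under growing conditions (3) numbered 1 at a minimum of 0.1 RPM, 1 at 1 RPM and 1 when values listed on another gene were left out, and under mTOR-inactive conditions (3) they numbered 1 in the last case. Summed RPM of 9.67 under growing conditions became 67.4 over all listed transcripts, above the 38.2 under mTOR-inactive conditions (32.3 before), which turns the order of the conditions. Normalized to RPKM by the authors (times 1000) the sums were 29436 (growing, with 0.041% in 3’UTRs) and 852 (mTOR-inactive). Of the growing sum, 29424 was the MITF site, on a transcript at 0.327 RPKM in growing cells, below the limit of 1 RPKM. The values of this site were also listed for DCDC2 and FNIP1, and its T-to-C value was 0.0081% of the usual multiple. PAR-CLIP values have no replicate, and small differences in mRNA level rest on 2 libraries per condition, each lone library being assumed to vary like the other condition when its partner was left out.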

Other observations

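Outside the members, several genes of the same pathways carried LARP1 sites with more reads than any member site, in 1 library per condition and with no replicate check. These genes were singled out after their values were seen, by a minimum of 1 RPM. Of 15 listed V-ATPase subunits 2 had such a site in growing cells and 3 after PP242. Of 12 nutrient sensing genes these were 2 and 0, and each other list had 1 gene at most per library. Among all genes of at least 1 RPKM the shares were 1.52% and 3.29%, and a difference from these was not tested. Under growing conditions LAMTOR1, a Ragulator subunit that anchors mTORC1 to the lysosome, had 5189 RPM at nt 1019 to 1042 of NM_017907.2, in its 3’UTR. MFSD8, a lysosomal membrane protein, had 3080 RPM in its CDS, but its T-to-C value was 1.09% of the usual multiple. ATP6V0B had 569 RPM in its 3’UTR, while FNIP1 had only 9.61 RPM, with the values it shares with MITF.

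Under mTOR-inactive conditions LAPTM4B, a lysosomal transmembrane protein, had 1673 RPM in its 3’UTR. The V-ATPase subunits ATP6V0A2 and ATP6V1G1 had 814 RPM and 703 RPM in their 3’UTRs, and the cargo receptor TAX1BP1 had 246 RPM there. A second ATP6V0A2 site had 7.85 RPM, with a T-to-C value of 0.011% of the usual multiple. ATP6V0A1 was listed in both conditions, with 1225 RPM in growing cells and 412 RPM after PP242, at different positions of its CDS (nt 2356 to 2379 and nt 2523 to 2549 of NM_005177.3).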
